A study of Mus musculus with 36 samples.

Results

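Quadriceps muscle taken 7 days after partial hepatectomy (PHx), an operation that cuts away 70% of the liver, was set against quadriceps of sham-operated mice. The members are the 5 libraries whose titles place them in the quadriceps at day 7 after PHx, and the 3 libraries titled as quadriceps controls, 8 of the 36 libraries of the series. All came from male C57BL6/J mice of 12 to 14 weeks that carried no transgene or allele in the labels. After PHx the remaining lobes regrow, and sham mice had the abdomen opened with the liver left whole. The days come from the titles, because the treatment field names day 3 for every sample, sham included, so the day on which the sham muscles were collected is unknown. Total RNA of frozen quadriceps was sequenced, and the series also holds 5 quadriceps libraries each from days 1 and 3, which entered the same fit. The design text speaks of 3 sham and 5 PHx mice, and each library was taken as 1 mouse. The p-values thus measure the spread within groups over the 18 quadriceps libraries fitted, and no more.

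After PHx the liver remnant divides and regains its mass within days, while it draws on amino acids and fat from the rest of the body. Muscle supplies amino acids by breaking down its own proteins: glucocorticoids and low insulin free the FOXO transcription factors, which switch on ubiquitin ligases such as atrogin-1 (Fbxo32) and MuRF1 (Trim63), and the tagged proteins go to the proteasome or to autophagy. The title of the series ties the growth co-activator Yap1 in liver to catabolism of the whole body and loss of muscle, and the day 7 comparison asks what is left of that in muscle at the last day sampled.

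The library totals ran from 17736269 to 20877950 reads at day 7 and from 20374466 to 24795800 reads in sham. Levels are given as CPM, read counts per gene scaled to library size with TMM. Changes are log2 fold changes of day 7 over sham ± SE from edgeR, and a gene "rose" or "fell" where the quasi-likelihood test over all 13601 genes gave a Benjamini-Hochberg adjusted p under 0.05. The tissue label fits the markers: the myofibre list of 10 genes summed to between 216800 and 294300 CPM at day 7 and between 242100 and 338100 CPM in sham.

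Between day 7 and sham 8 of 13601 genes were called, 0.0588%, of which 6 rose (0.0441%) and 2 fell (0.0147%). A further count at an unadjusted p under 0.05 gave 1604 genes (11.8%), 982 of them higher (7.22%) and 622 lower (4.57%) at day 7. The median log2 fold change of all genes tested was 0.02.

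Among the 8 were 2 genes for micropeptides of the sarcoplasmic reticulum, sarcolipin (Sln) and myoregulin (Mrln), which both bind the calcium pump SERCA and lower its activity, and they went in opposite directions. Their coding sequences, from the GENCODE M21 annotation of GRCm38, are shown because each is a single short open reading frame whose product binds the pump, with the start codon in capitals and the stop codon left out. The Sln frame lies on the plus strand at chr9:53853473-53853565 and has 31 codons, and the Mrln frame lies on the plus strand at chr10:70219496-70219633 and has 46 codons.
Sln: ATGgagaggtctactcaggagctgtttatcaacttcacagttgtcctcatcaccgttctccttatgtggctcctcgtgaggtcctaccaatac
Mrln: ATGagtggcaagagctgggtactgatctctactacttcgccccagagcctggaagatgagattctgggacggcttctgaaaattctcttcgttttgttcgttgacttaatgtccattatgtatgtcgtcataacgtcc

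Sln had 3.73, 25.6, 1.95, 5.56 and 6.20 CPM in day 7 replicates 1 to 5, against 0.219, 0.244 and 0.133 CPM in sham replicates 1 to 3. It rose by 5.39 ± 0.87 (adjusted p = 0.0371, edgeR quasi-likelihood test), and the lowest day 7 library lay above the highest sham library. In the sham libraries this rests on 5, 6 and 3 reads. Mrln had 10.1, 4.98, 8.19, 8.55 and 10.8 CPM at day 7, against 25.5, 25.5 and 22.2 CPM in sham. It fell by 1.52 ± 0.26 on the log2 scale (adjusted p = 0.0446, edgeR quasi-likelihood test), again with no overlap, and day 7 replicate 2 was at once the highest for Sln and the lowest for Mrln. In bulk muscle, fewer cells of a type and less RNA per cell cannot be told apart.

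Gnmt, glycine N-methyltransferase, which uses S-adenosylmethionine to methylate glycine, had 1.95, 7.17, 11.1, 2.53 and 7.67 CPM at day 7, against 0.175, 0.122 and 0.133 CPM in sham. It rose by 5.35 ± 0.79 (adjusted p = 0.0353, edgeR quasi-likelihood test), from 612 reads in all at day 7 and 10 in sham. Gnmt is best known as an abundant liver enzyme, and liver transcripts did not move with it in every library: Alb, the albumin gene, had 0.912, 1.52, 54.3, 2.57 and 4.0 CPM at day 7, against 1.58, 0.733 and 1.55 CPM in sham. Day 7 replicate 3 was the highest for both genes, whereas day 7 replicate 1 had less Alb than sham replicate 1 and more Gnmt than any sham library. The part of liver RNA in the Gnmt level was not tested.

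Lcn2, lipocalin 2, a secreted siderophore-binding protein of inflammation, had 5.30, 49.7, 44.5, 9.15 and 48.5 CPM at day 7, against 1.18, 0.529 and 0.574 CPM in sham, and rose by 5.36 ± 0.88 (adjusted p = 0.0371, edgeR quasi-likelihood test). Replicates 1 and 4 were the lowest of the day 7 libraries and still above every sham library. Tubb6, a beta-tubulin that is scarce in resting mouse muscle fibres, had 18.5, 35.3, 22.0, 23.6 and 42.4 CPM at day 7, against 6.93, 8.39 and 8.09 CPM in sham, and rose by 1.86 ± 0.33 (adjusted p = 0.0446, same test). Ccdc136, which encodes a coiled-coil protein, had 9.85, 29.7, 14.1, 10.4 and 38.2 CPM at day 7, against 3.42, 3.22 and 3.00 CPM in sham, and rose by 2.67 ± 0.46 (adjusted p = 0.0446, same test). For both, replicates 2 and 5 were the highest of the day 7 libraries.

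Both remaining genes act in ubiquitin ligases. Gid4, the substrate receptor of the GID/CTLH ligase, had 90.03, 57.8, 70.1, 77.5 and 75.4 CPM at day 7, against 129, 145 and 145 CPM in sham, and fell by 0.92 ± 0.15 on the log2 scale (adjusted p = 0.0371, edgeR quasi-likelihood test). Klhl3, the adaptor by which a cullin-3 ligase takes up WNK kinases, had 0.738, 1.02, 1.08, 0.781 and 0.965 CPM at day 7, against 0.175, 0.163 and 0.133 CPM in sham, and rose by 2.50 ± 0.44 (adjusted p = 0.0446, same test) on 3 or 4 reads in each sham library. Gid4 and Klhl3 varied less among the day 7 libraries than the other called genes, with SDs of log2 CPM of 0.23 and 0.22, against 1.34 for Sln and 1.53 for Lcn2.

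**Figure D1:**
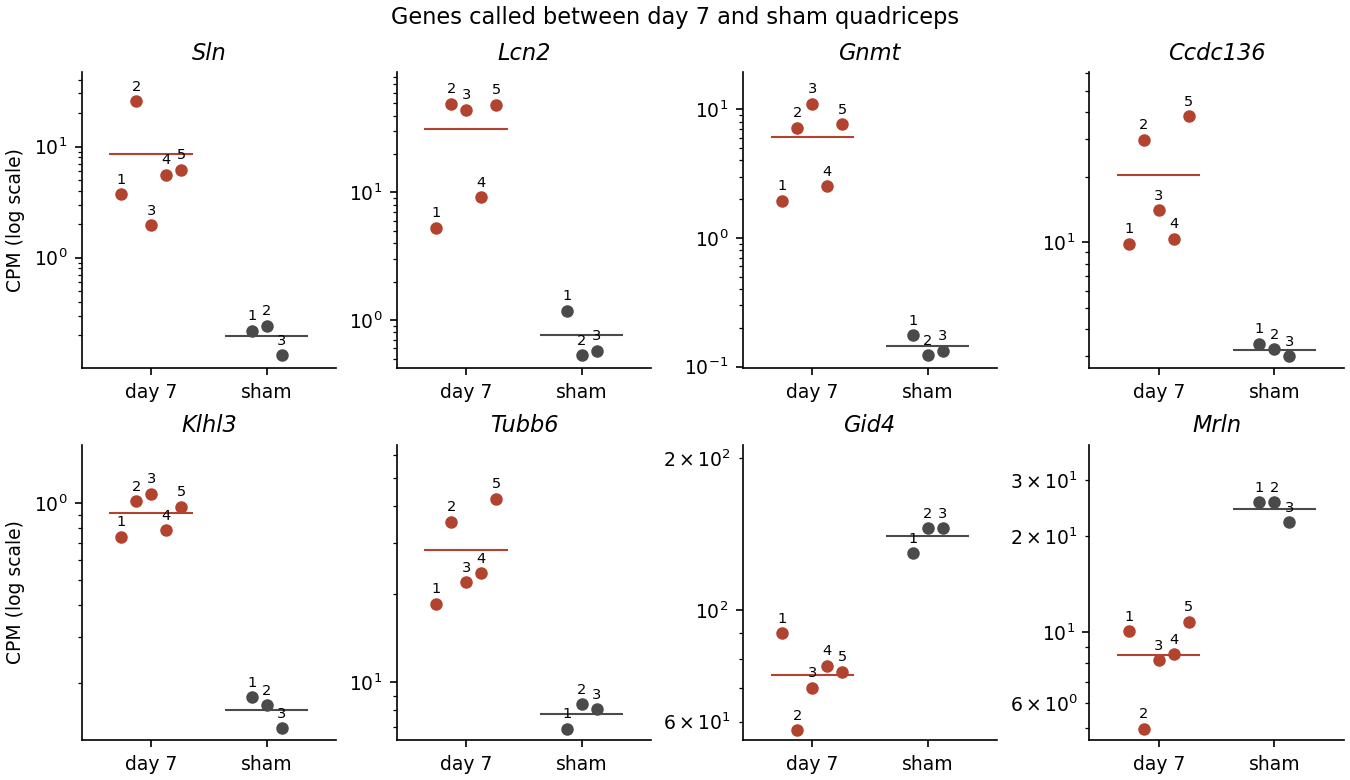
CPM on a log axis for the 8 genes called, 1 panel a gene, with 5 day 7 libraries on the left and 3 sham libraries on the right. Points are libraries labelled by replicate number and lines are group means. The groups do not overlap in any panel, which is likely for genes picked by p in these same libraries. Sln spans 1.95 to 25.6 CPM among the day 7 libraries.

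The number of calls hung on single libraries. Leaving out any 1 sham library gave 0 calls, as did leaving out day 7 replicate 5, with 997 to 1292 genes at an unadjusted p under 0.05 in those 4 fits. Without day 7 replicate 2 there were 2 calls, and without day 7 replicates 1, 3 and 4 there were 47, 19 and 51, with all 8 genes among them each time. DESeq2's Wald test called 292 genes, 231 higher and 61 lower, and edgeR's likelihood ratio test 150. The fit of the 2 groups alone called 2 genes, neither of them among the 8, and a fit with the replicate number as a block called 1, Gnmt. The authors' deposited table lists 300 genes for day 7 with an FDR under 0.05 (241 higher and 59 lower, 2.04% of its 14702 genes), and all 8 genes called here are among them.

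The 12 genes next in order of p, among those that averaged 5 CPM or more, were not called. Their adjusted p ran from 0.0508 to 0.0932 (edgeR quasi-likelihood test). In none of them did the groups overlap, but genes picked by a small p in these same libraries tend to separate, so this adds no support. Of all genes, 4.54% had every day 7 library above every sham library and 5.59% had every one below. The first of the 12, Smtnl2, a smoothelin-like protein of striated muscle, had 130, 116, 125, 148 and 134 CPM at day 7, against 247, 332 and 317 CPM in sham (-1.19 ± 0.22). Ankrd1, a titin-associated ankyrin repeat protein of strained muscle, had 24.0, 78.1, 37.2, 26.4 and 77.5 CPM at day 7, against 6.05, 4.48 and 0.530 CPM in sham (3.72 ± 0.68). Cpeb1, which controls polyadenylation of messenger RNAs in the cytoplasm, had 36.9, 24.7, 32.7, 50.5 and 36.7 CPM at day 7, against 83.2, 84.1 and 85.8 CPM in sham (-1.22 ± 0.23). Ankrd1 was thus several times more abundant in each day 7 library than in any sham library, while Smtnl2 and Cpeb1 were lower in each.

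Of the other 9 genes, 7 were higher at day 7. Mustn1, a small nuclear protein of developing and regenerating muscle and bone, averaged 270 ± 116 CPM at day 7 and 27.4 ± 8.14 CPM in sham (SD, n = 5 and 3). Doc2b, a calcium sensor of vesicle release, averaged 20.4 ± 27.1 CPM at day 7 and 0.549 ± 0.199 CPM in sham, and its highest day 7 library, replicate 3, had 67.8 CPM. Tnfrsf12a, the receptor of the cytokine TWEAK, averaged 10.4 ± 8.11 CPM at day 7 and 1.57 ± 0.748 CPM in sham, and Mt2, a metallothionein induced by glucocorticoids and zinc, 109 ± 80.7 CPM at day 7 and 8.40 ± 1.65 CPM in sham. Map1lc3a, an LC3 protein of autophagosomes, averaged 99.3 ± 24.9 CPM at day 7 and 53.2 ± 2.11 CPM in sham, and the phospholipase gene Pla2g12a and the zinc finger gene Zpr1 were 1.88 ± 0.37 and 1.42 ± 0.30 above sham on the log2 scale. The transcription factor gene Maz (-0.66 ± 0.14) and the pseudophosphatase gene Styx (-1.11 ± 0.23) were lower.

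The 5 day 7 libraries differed from each other more than the 3 sham libraries did. The median SD of log2 CPM over all tested genes was 0.39 at day 7, against 0.161 in sham, and the biological coefficient of variation that edgeR estimated from each group alone was 0.394 at day 7, against 0.193 in sham. Days 1 and 3 gave median SDs of 0.35 and 0.393 and coefficients of variation of 0.336 and 0.341. Of the genes whose group mean reached 5 CPM, 811 of 9072 (8.94%) spanned more than 4-fold among the 5 day 7 libraries, against 113 of 9049 (1.25%) among the 3 sham libraries. In the groups of 5 libraries from days 1 and 3 these shares were 5.85% and 6.21%. A range over 5 libraries is wider than over 3 by construction, and a median SD is slightly so. The fit assumed the same spread for a gene in every quadriceps group, although the groups differed in spread.

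The day 7 libraries also differed in how far they lay from sham. Each library was placed along the line that joins the sham mean (0) to the day 3 mean (1) over all genes. The day 7 replicates 1 to 5 lay at 0.093, 0.496, 0.755, 0.034 and 0.512, and the sham libraries between -0.019 and 0.109. Replicates 1 and 4 were thus within the range of the sham libraries on that line, and replicate 3 was above the lowest day 3 library, at 0.645. Of 9110 genes, replicates 1 to 5 had 108, 394, 867, 144 and 565 at least 2-fold above the sham mean, and 114, 583, 866, 40 and 660 at least 2-fold below it. Sham replicates 1 to 3, each set against the mean of the other sham libraries, had 68, 25 and 243 genes above and 126, 8 and 97 below. Day 7 replicates 1 and 4 lay within the range of the sham libraries in both counts. The pair most alike was replicates 1 and 4, with a median difference of 0.223 on the log2 scale, and the pair least alike was replicates 3 and 4, at 0.562, where sham pairs lay between 0.144 and 0.22. The labels give no batch, date or body weight that would separate these libraries, and library totals, 20877950 for replicate 1 and 18136600 for replicate 4 against 17736269 to 19544600 for the others, overlapped.

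**Figure D2:**
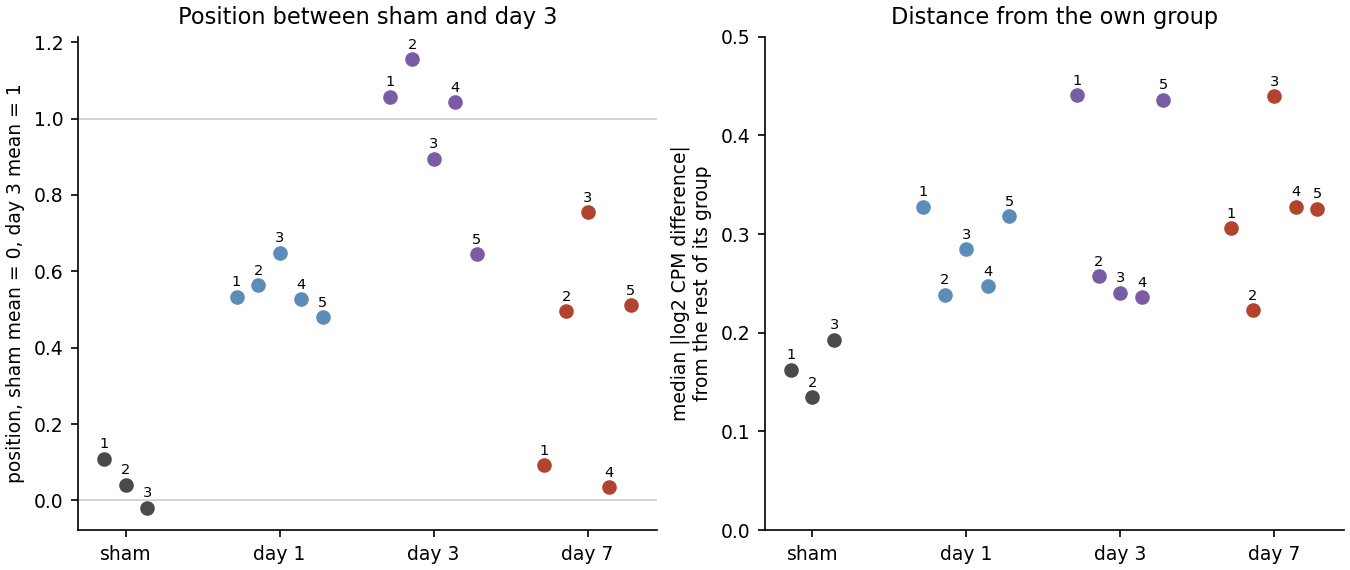
Left, position of each quadriceps library on the line from the sham mean (0) to the day 3 mean (1), over all tested genes; right, the median absolute log2 CPM difference of each library from the other libraries of its group. Points are libraries labelled by replicate number; day 7 replicates 1 and 4 lie at 0.093 and 0.034, beside the sham libraries, and replicate 3 at 0.755.

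Among the 15 genes with the largest SD between the day 7 libraries, 7 are known from lipid synthesis and fat cells, Scd1, Plin1, Adipoq, Fasn, Cfd, Cidec and Retn, and 2 from slow fibres, Myh7 and Myl3. The others were Lgals12, Ptger3, Ces1f, Cyp2e1, Prkar2b and Tmem45b. Like the 7 lipid and fat cell genes, each of these was highest at day 7 in replicate 4 and in sham in replicate 3. The part of fat tissue in their spread was not tested. The SD of log2 CPM was 3.47 for Scd1 and 2.75 for Myh7.

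The wasting genes Fbxo32 and Trim63 were high in some day 7 libraries and at or below the sham level in others. None of the 20 atrophy ligases and partners was called. Fbxo32, which encodes the ubiquitin ligase atrogin-1, had 147, 1247, 4557, 243 and 2009 CPM at day 7, against 281, 313 and 287 CPM in sham (2.48 ± 0.87, adjusted p = 0.266, edgeR quasi-likelihood test). Trim63, which encodes MuRF1, had 52.5, 275, 2285, 78.1 and 422 CPM at day 7, against 84.1, 75.0 and 80.9 CPM in sham (2.96 ± 0.96, adjusted p = 0.227). For both, replicates 2, 3 and 5 were above all sham libraries and replicate 1 was below all of them. Of the 20 atrophy ligases and partners, 3 were higher and 1 lower at an unadjusted p under 0.05, beside 7.22% and 4.57% of all genes. Their median log2 fold change was -0.02, beside 0.02 for all genes. The smallest p among them belonged to Fbxo31, an F-box protein of a cullin ligase, with 77.8, 211, 290, 75.1 and 294 CPM at day 7, against 74.6, 72.8 and 64.6 CPM in sham (1.42 ± 0.39). Mstn, the gene of myostatin, which limits muscle mass, had 58.2, 73.7, 206, 86.7 and 133 CPM at day 7, against 112, 137 and 152 CPM in sham (-0.26 ± 0.38), and replicate 3 alone lay above the sham range.

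Genes under the glucocorticoid receptor and FOXO spread widely, with a median SD of log2 CPM of 1.16 at day 7, beside 0.39 for all genes; the slow fibre genes (1.55) and the erythroid (1.81), hepatocyte (2.08) and adipocyte (2.89) markers spread more. Of 25 such genes, 15 were higher and 0 lower at an unadjusted p under 0.05, beside 7.22% and 4.57% of all genes. None of the 25 was called, and their median was 1.21. Their summed level was 2038, 6423, 18300, 2466 and 4309 CPM in day 7 replicates 1 to 5, against 2408, 2271 and 2232 CPM in sham, so replicate 1 lay below sham and replicate 3 far above. Pdk4, the kinase that keeps pyruvate out of the mitochondrial citrate cycle, had 310, 2273, 10236, 504 and 200.1 CPM at day 7, against 362, 330 and 344 CPM in sham (2.97 ± 1.02, adjusted p = 0.256, edgeR quasi-likelihood test). Replicate 5 was low in Pdk4 and high in Fbxo32 and Trim63, so the day 7 libraries did not have 1 common order.

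Of the other genes of this axis described here, replicate 3 was the highest for all but the metallothioneins Mt1 and Mt2, which were highest in replicate 5. Cdkn1a, a cell cycle inhibitor that FOXO factors and p53 induce, had 11.8, 48.8, 221, 12.5 and 124 CPM at day 7, against 7.72, 4.89 and 4.33 CPM in sham (3.89 ± 0.86, adjusted p = 0.0932). Ddit4, an inhibitor of mTORC1, had 4.69, 25.0, 225, 6.25 and 13.1 CPM at day 7, against 2.59, 2.69 and 2.34 CPM in sham (4.43 ± 1.17, adjusted p = 0.167, edgeR quasi-likelihood test). In both, every day 7 library was above every sham library, as in 4.54% of all genes. Fkbp5, a co-chaperone of the glucocorticoid receptor, had 20.1, 137, 296, 35.1 and 132 CPM at day 7, against 18.3, 19.7 and 20.1 CPM in sham (2.68 ± 0.62, adjusted p = 0.109), with replicate 1 inside the sham range. Foxo1 (1.85 ± 0.60), Foxo3 (1.03 ± 0.41), Klf15 (1.16 ± 0.59), Cebpd (3.25 ± 1.01) and Gadd45a (1.78 ± 0.64) each had their highest value in replicate 3 as well. Mt1, the companion of Mt2, had 40.3, 228, 246, 71.7 and 320 CPM at day 7, against 18.4, 19.5 and 29.0 CPM in sham (3.02 ± 0.68).

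**Figure D3:**
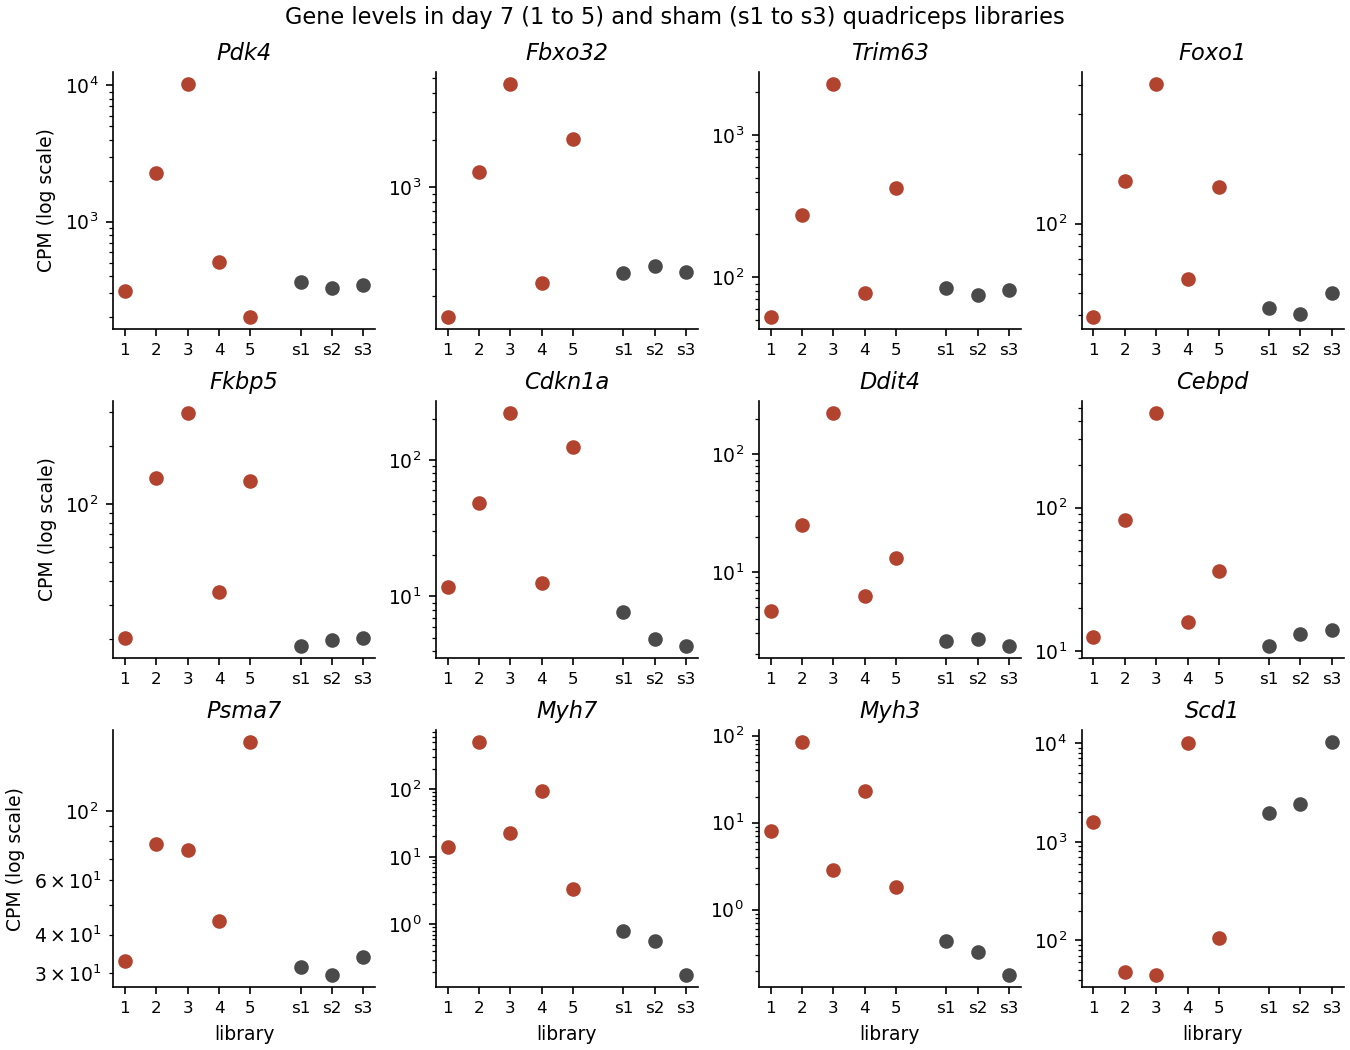
CPM on log axes in the 8 libraries for 9 genes of catabolism, stress and the proteasome, for Myh7 and Myh3 and for Scd1; 1 to 5 are day 7 replicates and s1 to s3 sham replicates. Pdk4 runs from 200.1 to 10236 CPM among the day 7 libraries and from 330 to 362 CPM among the sham libraries, and the order of the day 7 libraries differs between panels.

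Subunits of the proteasome followed another order, with replicate 5 highest. Their 32 genes summed to 2310, 3523, 5246, 2481 and 5846 CPM at day 7, against 2747, 2818 and 2739 CPM in sham, so that replicates 1 and 4 lay below all sham libraries. Of the 32, 12 were higher at an unadjusted p under 0.05, beside 7.22% of all genes. None was lower at that threshold, 0 were called, and the median was 0.50. Psma7, a subunit of the catalytic core, had 32.9, 78.5, 75.1, 44.3 and 167 CPM at day 7, against 31.5, 29.6 and 34.0 CPM in sham (1.33 ± 0.40). The regulatory subunit genes Psmd4 (1.26 ± 0.41) and Psmd2 (1.02 ± 0.36) had values below all sham libraries in replicate 1. Of 28 autophagy and lysosome genes, 7 were higher and 1 lower, beside 7.22% and 4.57% of all genes, with a median of 0.40. Gabarap, a protein of autophagosome membranes, had 86.1, 131, 77.3, 107 and 214 CPM at day 7, against 63.7, 64.1 and 70.4 CPM in sham (0.90 ± 0.25), and Map1lc3b had 125, 238, 362, 118 and 286 CPM at day 7, against 116, 119 and 108 CPM in sham (0.98 ± 0.30). Gabarap was above the sham range in all 5 libraries, as were 4.54% of all genes, and Map1lc3b was above it in 4 of 5.

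Transcripts of slow fibres were more abundant in every day 7 library than in any sham library when summed. Of 14 slow fibre genes, 12 were higher at an unadjusted p under 0.05, beside 7.22% of all genes, and 10 had every day 7 library above every sham library, beside 4.54% of all genes. None was called, and the median was 4.31. Of 14 fast fibre genes, 7 were lower, beside 4.57% of all genes, and 1 higher, with a median of -0.69. The slow genes summed to 1333, 5810, 2771, 1415 and 1364 CPM at day 7, against 891, 599.6 and 207 CPM in sham. The sham libraries thus differed among themselves by several-fold, with replicate 3 lowest. Mb, the myoglobin of oxidative fibres, had 548, 1304, 1177, 251 and 155 CPM at day 7, against 284, 191 and 32.8 CPM in sham, and overlapped between the groups. The labels do not say which part of the quadriceps was taken.

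Myh7, the slow myosin heavy chain, had 14.0, 500.4, 22.5, 95.7 and 3.31 CPM at day 7, against 0.790, 0.570 and 0.177 CPM in sham (7.94 ± 2.57, adjusted p = 0.229, edgeR quasi-likelihood test). Replicate 2 had far more than any other library, and the lowest, replicate 5, was still above sham. Tnnc1, slow troponin C, had 2.04, 44.2, 3.42, 10.5 and 0.597 CPM at day 7, against 0.132, 0.0815 and 0 CPM in sham, which is 5 reads over the 3 sham libraries. Tnni1 (6.28 ± 2.03) and Myoz2 (4.37 ± 1.41) were likewise highest in replicate 2. Per transcript length, Myh4, the fastest of the 4 adult myosins, made up 79.1, 40.3, 73.3, 85.4 and 85.2% of their sum at day 7, against 93.9, 97.1 and 99.5% in sham, and Myh1 19.2, 42.6, 20.8, 11.1 and 13.1% at day 7, against 4.72, 2.53 and 0.455% in sham. The groups did not overlap in either share. Myosin genes share long stretches of sequence, so reads could be split between them, and these shares are uncertain to that extent. Of the fast fibre genes, Tpm1 (-1.31 ± 0.33), Mybpc2 (-1.16 ± 0.33) and Tnnc2 (-0.88 ± 0.24) had the smallest p. Each had all day 7 libraries below all sham libraries, which is likely for genes picked by p in these same libraries. The same held for 7 of the 14 fast fibre genes, beside 5.59% of all genes.

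**Figure D4:**
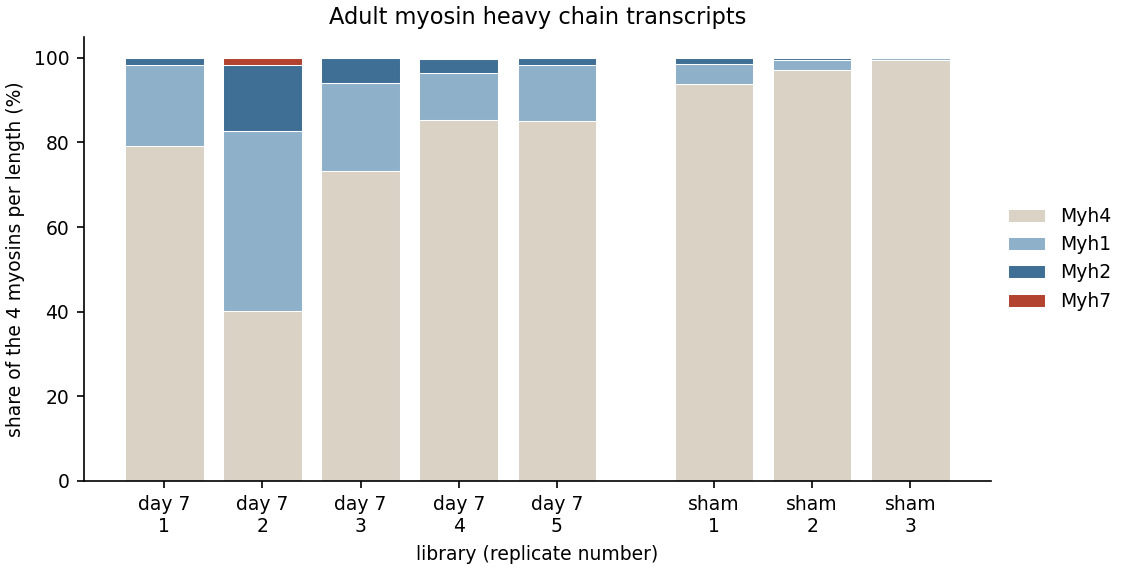
Share of Myh4, Myh1, Myh2 and Myh7 in the sum of these 4 adult myosin heavy chains per transcript length, as stacked bars from 0 to 100%, 1 bar a library, with day 7 on the left and sham on the right. Myh4 makes up 40.3% in day 7 replicate 2 and between 93.9 and 99.5% in the sham libraries.

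Genes of embryonic muscle were also highest in replicate 2. Myh3, the embryonic myosin heavy chain, had 8.07, 84.6, 2.87, 23.3 and 1.84 CPM at day 7, against 0.439, 0.326 and 0.177 CPM in sham (6.24 ± 1.37, adjusted p = 0.0932, edgeR quasi-likelihood test). Tnnt2 and Myl4, forms of troponin T and myosin light chain that muscle uses before birth, differed by 4.55 ± 0.86 and 2.68 ± 0.56. In all 3 genes each day 7 library was above each sham library, as in 4.54% of all genes and 4 of the 14 myogenesis genes tested. The 3 were named for their small p in these same libraries, so the separation adds no support. Of the 14 myogenesis genes tested, 5 were higher and 0 lower at an unadjusted p under 0.05, beside 7.22% and 4.57% of all genes. Their median was 0.57. Myog, the myogenic transcription factor, had 4.04, 9.71, 2.06, 4.92 and 14.6 CPM at day 7, against 1.71, 2.16 and 1.33 CPM in sham (2.02 ± 0.99).

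Of 16 genes of the denervation and neuromuscular junction list, 6 were higher and 0 lower, beside 7.22% and 4.57% of all genes. Sln was the 1 called, and the median was 0.52. Chrna1, the alpha subunit of the muscle acetylcholine receptor, had 23.8, 66.6, 10.4, 33.6 and 49.8 CPM at day 7, against 11.5, 9.90 and 10.1 CPM in sham (1.81 ± 0.65), with replicate 3 inside the sham range. Chrnb1, its beta subunit, had 33.1, 50.8, 27.7, 37.6 and 68.9 CPM at day 7, against 17.8, 21.3 and 14.5 CPM in sham (1.29 ± 0.34), and Runx1, a transcription factor that denervation induces, had 13.0, 33.6, 26.5, 17.1 and 76.6 CPM at day 7, against 8.16, 10.7 and 9.68 CPM in sham (1.81 ± 0.56). Replicate 3, the highest for Fbxo32 and Pdk4, was the lowest day 7 library for Chrna1, Chrnb1 and Myog.

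Genes of glycolysis and glycogen lay lower at day 7 without any call. Of 22, 9 were lower and 1 higher at an unadjusted p under 0.05, beside 4.57% and 7.22% of all genes. In 8 all day 7 libraries were below all sham libraries, beside 5.59% of all genes, and the median was -0.46. Pygm, muscle glycogen phosphorylase, had 6704, 3488, 5921, 6256 and 4183 CPM at day 7, against 8245, 8849 and 9332 CPM in sham (-0.73 ± 0.26). Pfkm, muscle phosphofructokinase (-0.76 ± 0.24), and Pkm, pyruvate kinase (-0.84 ± 0.28), had the smallest p, with replicates 2 and 5 lowest in both. The 42 respiratory chain genes had 1 member higher, Cox6a2 (0.73 ± 0.22), beside 7.22% of all genes, and a median of 0.12.

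Genes of fatty acid oxidation and of PPAR were split between libraries. Their sum was 2327, 6804, 16320, 3619 and 1931 CPM at day 7, against 2537, 2437 and 3331 CPM in sham. Of the 25, 6 were higher at an unadjusted p under 0.05, beside 7.22% of all genes, with a median of 0.54. Acadl, the long-chain acyl-CoA dehydrogenase, had 151, 515, 500, 214 and 264 CPM at day 7, against 167, 136 and 148 CPM in sham (1.13 ± 0.37), and Acot1, an acyl-CoA thioesterase, 0.217, 6.56, 13.6, 1.38 and 1.61 CPM at day 7, against 0.351, 0.122 and 0.221 CPM in sham (4.30 ± 1.23). Ucp3, an uncoupling protein of muscle mitochondria, was 0.78 ± 0.75 and Angptl4, an inhibitor of lipoprotein lipase, -0.48 ± 0.79. Ppargc1a, the coactivator of mitochondrial genes, averaged 62.0 ± 21.2 CPM at day 7 and 62.0 ± 13.8 CPM in sham (SD, n = 5 and 3).

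Lipid synthesis genes, summed, ran from 544.9 CPM in replicate 3 to 15570 CPM in replicate 4 at day 7, against 3648 to 14710 CPM in sham. Scd1, which makes monounsaturated fatty acids, had 1598, 47.6, 44.5, 9934 and 107 CPM at day 7, against 1959, 2412 and 10271 CPM in sham (-1.06 ± 1.32, adjusted p = 0.781, edgeR quasi-likelihood test). Fasn, fatty acid synthase, had 646, 27.9, 12.3, 2982 and 329 CPM at day 7, against 701, 900 and 2415 CPM in sham (-0.74 ± 1.06). Adipoq, the fat cell hormone adiponectin, had 49.3, 2.39, 0.597, 223 and 33.0 CPM at day 7, against 56.7, 98.04 and 343 CPM in sham (-1.43 ± 1.18). Day 7 replicate 4 and sham replicate 3 were the highest of their groups for all 3 genes and replicate 3 the lowest at day 7. The 10 adipocyte markers summed to between 618 and 2633 CPM at day 7 and between 1023 and 4106 CPM in sham, 9 of the 10 had negative fold changes and 0 had an unadjusted p under 0.05. Plin1 was -1.53 ± 1.20 and Cfd -1.40 ± 1.05. At day 7, 9 of the 10 markers were highest in replicate 4; Plin4, a lipid droplet protein that muscle also makes, had 165.7, 617, 741, 356 and 284 CPM at day 7, against 234.5, 295 and 544.5 CPM in sham, and was highest in replicate 3. The marker sum in replicate 3, 959 CPM, was the second highest at day 7. None of the 19 lipid synthesis genes had an unadjusted p under 0.05, and the part of fat tissue in their levels was not tested.

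**Figure D5:**
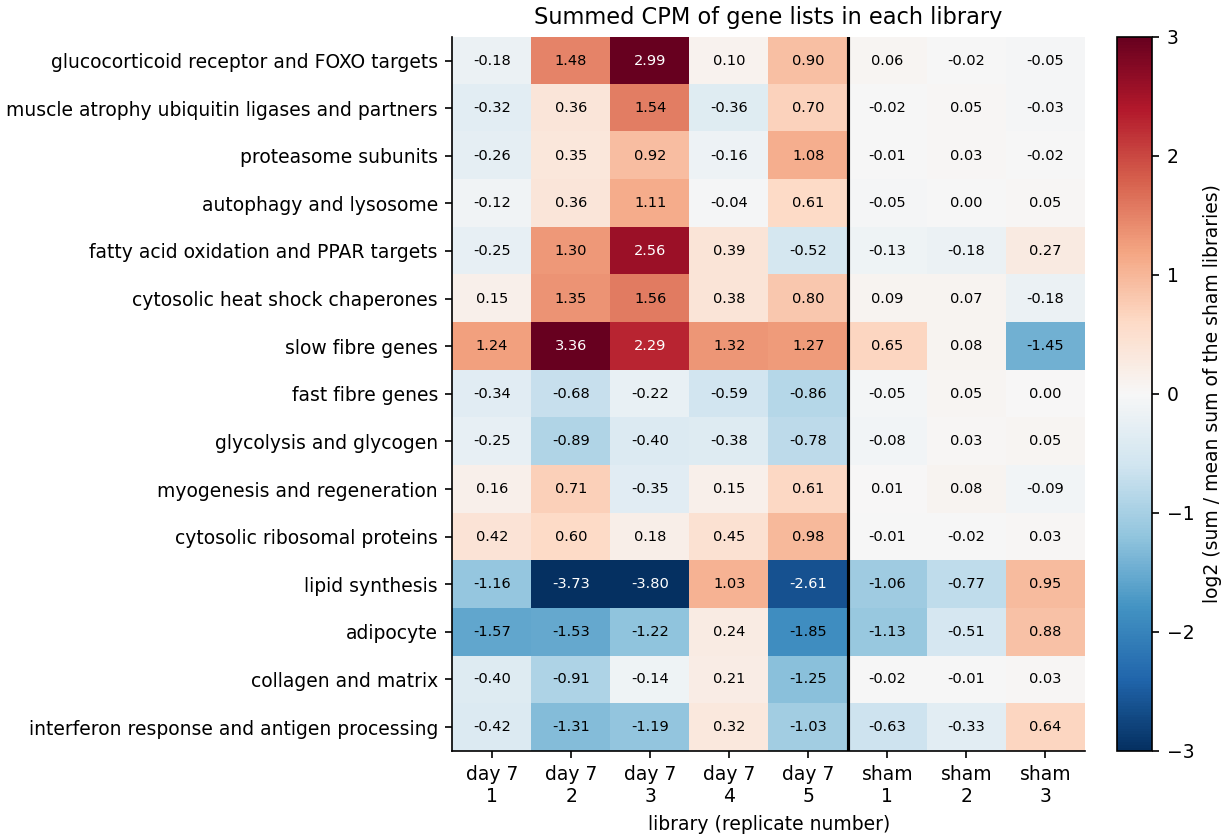
Summed CPM of 15 gene lists in each library as log2 of its ratio to the mean sum of the 3 sham libraries, with the 5 day 7 libraries left of the line and the 3 sham libraries right of it; red is above and blue below that mean. Glucocorticoid receptor and FOXO targets run from -0.18 in day 7 replicate 1 to 2.99 in replicate 3, and lipid synthesis genes from -3.80 in replicate 3 to 1.03 in replicate 4.

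Of 23 acute phase and STAT3 genes, 7 were higher and 0 lower at an unadjusted p under 0.05, beside 7.22% and 4.57% of all genes. Lcn2 was the 1 called, and the median was 0.74. Serpina3n, an inhibitor of serine proteases, had 15.6, 195, 53.1, 65.4 and 179.7 CPM at day 7, against 4.74, 8.68 and 27.5 CPM in sham (2.90 ± 0.94), and replicate 1 lay inside the sham range. Il6ra, the receptor of interleukin 6, had 8.94, 42.9, 152, 14.5 and 36.3 CPM at day 7, against 8.34, 8.06 and 12.6 CPM in sham (2.40 ± 0.70), and Osmr, the oncostatin M receptor, was 0.83 ± 0.25. Socs3, the feedback inhibitor of STAT3 signalling, was -0.62 ± 0.77, with sham replicate 2 at 17.6 CPM, above all day 7 libraries. Among the stress genes Hspb7, a small heat shock protein of muscle, had 233, 1791, 2401, 395 and 889 CPM at day 7, against 96.2, 65.5 and 19.2 CPM in sham (4.24 ± 0.93, adjusted p = 0.0932, edgeR quasi-likelihood test), and Hspb1 was 1.61 ± 0.53. Of 16 cytosolic chaperones, 4 were higher and 0 lower, beside 7.22% and 4.57% of all genes, with a median of 0.39.

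The neutrophil markers were scarce, and the 10 macrophage markers summed to between 113.8 and 239.5 CPM at day 7 and between 100.3 and 172.5 CPM in sham. Of 7 neutrophil markers tested, 5 were higher at an unadjusted p under 0.05, beside 7.22% of all genes. The smallest p was that of S100a8, a calcium-binding alarmin. It had 2.60, 4.68, 0.488, 1.79 and 6.39 CPM at day 7, against 0, 0 and 0.265 CPM in sham. This rests on 339 reads in all at day 7 and 6 in sham, all of these in sham replicate 3. Ngp, a neutrophil granule gene, had 0 CPM in 4 of 5 day 7 libraries. Lcn2 is also made by neutrophils. The neutrophil list summed to between 3.15 and 13.3 CPM at day 7 and between 3.42 and 8.09 CPM in sham. Its lowest sum was in day 7 replicate 3, where Lcn2 had 44.5 CPM. Most of the sham sums was Mmp9, with 2.24, 3.50 and 7.07 CPM in sham replicates 1 to 3. At day 7 Mmp9 had 3.95, 0.661, 1.09, 3.54 and 2.21 CPM. Of the 7 markers tested, 6 had positive fold changes and 1 a negative one. Day 7 replicates 2 and 5 were the highest for both S100a8 and Lcn2, and the part of neutrophils in the Lcn2 level was not tested. Cd68, a lysosomal protein of macrophages, had 10.7, 20.4, 6.40, 13.3 and 38.5 CPM at day 7, against 3.25, 3.79 and 4.64 CPM in sham (2.20 ± 0.54), whereas 9 of 10 macrophage markers had an unadjusted p above 0.05.

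Matrix and interferon genes had mostly negative fold changes. Of 32 collagen and matrix genes, 4 were lower and 2 higher at an unadjusted p under 0.05, beside 4.57% and 7.22% of all genes. Their median was -0.45, and the fibroblast markers had 2 of 10 lower and a median of -0.67. Loxl2, which crosslinks collagen, had 12.9, 8.19, 14.2, 28.3 and 6.25 CPM at day 7, against 31.8, 26.6 and 22.9 CPM in sham (-0.96 ± 0.36), and Thbs1, thrombospondin 1, went the other way (1.92 ± 0.70). Igfbp5, an IGF-binding protein of muscle, had 694, 114, 57.2, 800.1 and 236 CPM at day 7, against 1258, 1281 and 1424 CPM in sham (-1.80 ± 0.80, adjusted p = 0.386, edgeR quasi-likelihood test). Its day 7 libraries were all below the sham libraries, as in 5.59% of all genes. Igf1, the growth factor itself, was -0.66 ± 0.51. Of 28 interferon and antigen processing genes, 1 was lower and 0 higher at an unadjusted p under 0.05, beside 4.57% and 7.22% of all genes. Fold changes were negative in 23, and the median was -0.35. Their sum was highest in day 7 replicate 4 (747.8 CPM) and sham replicate 3 (929.4 CPM). These libraries were also the highest of their groups for the lipid synthesis sum.

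Cytosolic ribosomal protein genes differed by a small amount in nearly all members. Of 31 tested, 29 were higher at an unadjusted p under 0.05, beside 7.22% of all genes, and 22 had every day 7 library above every sham library, beside 4.54%, while 0 were called. Their sum was 3084, 3502, 2610, 3153 and 4542 CPM at day 7, against 2293, 2267 and 2350 CPM in sham, and the median log2 fold change was 0.59. Rps18 differed by 0.77 ± 0.20 and Rpl10a by 0.67 ± 0.18 on the log2 scale. The 5 libraries were ordered otherwise than for the wasting genes, with replicate 3 lowest and replicate 5 highest. Ribosomal protein genes have many processed copies in the genome, between which reads can be split. Of 19 clock genes, 2 were higher and 2 lower at an unadjusted p under 0.05, beside 7.22% and 4.57% of all genes. In 7 of the 19 all day 7 libraries were below all sham libraries, beside 5.59% of all genes. In 1 they were all above, beside 4.54% of all genes. Among the 2 lower ones was Hlf, a transcription factor of the clock's output (-1.13 ± 0.42), without overlap between the groups. The hour of collection is not in the labels.

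Transcripts of other organs were found in some libraries. Besides Alb, the liver genes Apob and Fgb had 24.8 and 9.11 CPM in day 7 replicate 3, against at most 1.47 and 0.23 CPM in the other day 7 libraries and at most 0.877 and 0.163 CPM in sham. Replicate 3 was also the day 7 library with the highest Pdk4, Fbxo32 and Trim63, and the part of liver RNA in that was not tested. Of 10 hepatocyte markers 2 had an unadjusted p under 0.05, both higher, beside 7.22% of all genes. Without replicate 3 the median of the list was 0.45 instead of 3.07. Hormone transcripts of pancreatic islets were nearly absent at day 7 and present in sham. Ins2 had 1, 0, 0, 0 and 0 reads in day 7 replicates 1 to 5, against 267, 63 and 59 reads in sham replicates 1 to 3, and Gcg had 0, 0, 1, 0 and 0 reads at day 7, against 242, 56 and 69 reads in sham. Day 1 replicates 1 to 3 held them too, and day 1 replicates 4 and 5 had 0 reads of both. They were nearly absent at day 3 as well, with 0 reads of Ins2 in every library and 2 reads of Gcg, in replicate 1 only. Gcg (-8.40 ± 1.81), Ins2 (-8.49 ± 1.93) and Scg2, a granin of endocrine cells (-5.76 ± 1.31), had adjusted p of 0.0932, 0.116 and 0.0977 (edgeR quasi-likelihood test). Muscle does not make insulin or glucagon, and whatever brought these reads to sham and not to day 7 libraries cannot be told apart from the groups.

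Day 7 was also set against the earlier days in the same fit. Against day 3, 4971 genes (36.5%) were called, 2315 (17.0%) higher and 2656 (19.5%) lower at day 7. All 32 proteasome genes fell relative to day 3, as did 16 of 25 glucocorticoid receptor and FOXO targets and 14 of 20 atrophy ligases and partners. Fbxo32 averaged 1641 ± 1801 CPM at day 7 and 7832 ± 2722 CPM at day 3 (-2.26 ± 0.71, adjusted p = 0.0205), and Mt2 was 3.56 lower on the log2 scale, with 109 ± 80.7 CPM at day 7 and 1284 ± 413 CPM at day 3 (SD, n = 5 each; adjusted p = 0.00157, edgeR quasi-likelihood test). Lcn2 fell too, by 2.42 ± 0.58 on the log2 scale (adjusted p = 0.00534, edgeR quasi-likelihood test). Of the collagen and matrix genes, 18 of 32 rose relative to day 3, as did 12 of 28 interferon genes and 11 of 19 lipid synthesis genes.

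Some genes of the day 7 pattern were higher than at day 3, and others were lower. Sln rose by 1.93 ± 0.56 relative to day 3 (adjusted p = 0.0135), where it had 2.26 ± 1.02 CPM, and Myh3 by 4.38 ± 0.96 (adjusted p = 0.00333, both edgeR quasi-likelihood test), where it had 1.15 ± 1.31 CPM. Chrna1 (1.42 ± 0.53, adjusted p = 0.0452) and Myl4 (1.6 ± 0.44, adjusted p = 0.0105) rose as well. Runx1 fell (-1.41 ± 0.45, adjusted p = 0.0232, same test). Of the 16 denervation and neuromuscular junction genes 6 rose and 3 fell, and of the 14 myogenesis genes 4 rose and 2 fell. The days overlapped: Sln had 1.95 CPM in day 7 replicate 3 and 3.44 CPM in day 3 replicate 3. Myh3 had 1.84 CPM in day 7 replicate 5 and 3.38 CPM in day 3 replicate 5. For Mrln and Gid4 the day 7 and day 3 levels were not called different: Mrln averaged 8.52 ± 2.25 CPM at day 7 and 8.66 ± 3.05 CPM at day 3 (-0.02 ± 0.23), and Gid4 74.2 ± 11.7 CPM at day 7 and 59.8 ± 1.46 CPM at day 3 (0.31 ± 0.13). Of the 14 slow fibre genes 0 were called between these days.

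Against day 1, 273 genes (2.01%) were called, 77 (0.566%) higher and 196 (1.44%) lower at day 7. Sln (3.59 ± 0.62), Ccdc136 (2.56 ± 0.38) and Myh3 (5.2 ± 1.03) rose and Gid4 (-0.76 ± 0.13) and Mrln (-1.40 ± 0.24) fell relative to day 1, with adjusted p from 0.0127 to 0.022 (edgeR quasi-likelihood test). Tpm1 (-1.29 ± 0.30, adjusted p = 0.0386) and Tnnc2 (-0.86 ± 0.21, adjusted p = 0.0451) fell as well. In the 2 groups alone, and with the replicate block, 0 genes were called (2656 and 2850 at an unadjusted p under 0.05, edgeR quasi-likelihood test). Without day 7 replicate 3 the count was 1917, and without day 7 replicate 4 it was 7; it also moved to 1062 without day 1 replicate 1, to 518 without day 1 replicate 3, to 34 without day 1 replicates 2 or 4, to 38 without day 1 replicate 5, and to 24, 20 and 33 without day 7 replicates 1, 2 and 5.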

How the data were processed

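The deposited table holds read counts per gene, unnormalized, made by the authors. Per the submitters' processing notes, FastQC 0.11.5, STAR 2.7.10a, featureCounts, Subread 2.0.3 and edgeR 3.40.2 were used on mm10; strand settings are not given in the sources used here. The authors' deposited log2 fold changes and FDR (an adjusted p-value) were only set beside the results, and 54 other per-sample columns were not used. Symbols stand as deposited (2 duplicated, 23 turned into dates).

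The 18 quadriceps libraries, grouped by title, were fitted together (R 4.3.3, edgeR 4.0.16; filterByExpr, TMM, estimateDisp, glmQLFit with robust hyperparameters, two-sided quasi-likelihood F-tests, Benjamini-Hochberg over 13601 genes, 0.05). Log2 CPM used a prior count of 2. Alternatives included DESeq2 1.42.0. Replicates were compared by the SD of log2 CPM, with no test. Named were all called genes, the next by p up to 20 with a mean of at least 5 CPM, 30 fixed genes, leading members of each list, and the 15 most variable genes. The members, lists and fixed genes were chosen with earlier results of these data known. Coding sequences come from GENCODE M21. Figures used matplotlib 3.10.9.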

Additional observations from a re-analysis of the deposited data

Results flagged for a closer look

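Among the 5 day 7 libraries, 91 named genes and 37 lists were checked for 1 library far from the others on the log2 scale, by the gap to its nearest neighbour over the range of the group, and 4 genes and 0 lists exceeded the critical value for 5 samples. Chance alone gives about 1 in 20. Apob (0.744) and Fgb (0.854) stood out as high in day 7 replicate 3, with 24.8 and 9.11 CPM. Gcg (1) was flagged in day 7 replicate 3 and Ins2 (1) in day 7 replicate 1, each for a single read where the other day 7 libraries had 0.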

How the results depend on the processing

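The 8 calls between day 7 and sham stayed 8 with DESeq2's size factors and without the filter on low counts and were 9 without robust fitting. DESeq2's Wald test gave 292, the likelihood ratio test 150 and the 2 groups alone 2, Gcg and Ins2, with 0 of the 8. Leaving out 1 library gave 0 to 51. The cause was not tested. The fold changes of the 8 genes kept their direction in all 15 settings (Sln 4.41 to 5.64, Gnmt 5.02 to 5.57, Mrln -1.62 to -1.38), with adjusted p over 0.05 in 5 to 7 of them. Deviations of same-numbered day 7 and sham libraries from their group means correlated at -0.0733, 0.105 and -0.197. Those of differently numbered libraries correlated at -0.411 to 0.47. So few pairs cannot show whether the replicate numbers pair the libraries. With the replicate block 1 gene, Gnmt, was called against sham, 0 against day 1 and 4384 against day 3.

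Against day 3 the count ran from 3394 to 5920 over all settings. Against day 1 it was 273, with 1216 by DESeq2, 0 in the 2 groups alone (2656 at an unadjusted p under 0.05; 2850 with the block) and 7 to 1917 when 1 library was left out. The median SD at day 7 ran from 0.321 to 0.411.

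Of 91 genes, 5 changed sign in some setting, none of them called. Ppargc1a was 0.0123 with DESeq2's size factors, 0.0113 by DESeq2, 0.032 without the filter and 0.0176 in the 2 groups alone. When 1 library was left out, Ppargc1a ran from -0.18 to 0.16, Socs3 from -1.05 to 0.35 (without sham replicate 2), Angptl4 from -1.11 to 0.18 (without sham replicate 3), Scd1 from -3.44 to 0.10 (without sham replicate 3) and Ucp3 from -0.11 (without day 7 replicate 3) to 1.06. Of the 37 list medians, 5 changed sign in 1 to 3 settings each: lipid synthesis, atrophy ligases and partners, respiratory chain, tendon, and IGF and myostatin signalling. The hepatocyte, adipocyte, neutrophil and tendon medians each moved in 1 setting by more than the median SE of their genes. Genes with few reads in sham, such as Klhl3 and Gnmt, are limited by depth.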
